A study of Schizosaccharomyces pombe with 9 samples.

Results

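Clr4, the histone H3 lysine 9 (H3K9) methyltransferase of fission yeast, works inside a multi-subunit complex, and the question addressed here is whether the genes of its partners follow clr4 when clr4 itself is raised. The genes described are clr4 (SPBC428.08c), meu6 (SPBC428.07, which overlaps clr4 in the annotation), rik1 (SPCC11E10.08), raf2 (SPCC970.07c), pcu4 (SPAC3A11.08, listed as cul4 by RefSeq), stc1 (SPBP8B7.28c) and swi6 (SPAC664.01c). They were taken by identifier and make up 7 of the 4915 genes of the count table. Polyadenylated RNA was sequenced from Schizosaccharomyces pombe grown to log phase in the rich medium YEA at 32 °C. The labels name 3 genotypes. All of them carry TetR-Mit1, in which the chromatin remodeler Mit1 is fused to a Tet repressor. The genotype tetrmit1_clr4oe (clr4oe below, 2 libraries) adds a modification that raises clr4, by a promoter or copy that the labels do not describe. The genotype tetr-mit1k587a (K587A below, 3 libraries) carries K587A as a substitution within its Mit1 portion, and tetr-mit1 (TetR-Mit1 below, 3 libraries) has neither change. A single strain number stands behind each genotype, so genotype and strain cannot be told apart.

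Methylation of H3K9 marks the silent chromatin of centromeres, telomeres and the mating-type region in this yeast. Clr4 writes the mark as part of a cullin-RING ubiquitin ligase assembly. In it Pcu4 is the cullin scaffold, Rik1 is a large propeller protein related to the DNA damage-binding protein Ddb1, and Raf2 is a further subunit. Stc1 links the assembly to the RNA interference machinery, and Swi6 is the heterochromatin protein 1 (HP1) family member that binds the methylated tail. Meu6 takes its name from its raised expression in meiosis.

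Totals were 13838210 to 14401186 counts per library in clr4oe, 10367168 to 15920802 in K587A and 13086567 to 14181298 in TetR-Mit1. All 7 genes passed the filter on low counts, and the lowest count of any of them in any library was 162, for stc1. Expression is given as TMM-normalised CPM, counts relative to the size of the library after the libraries were scaled to each other. Such values are shares of the RNA of a whole culture, so a change in the number of cells that express a gene and a change per cell cannot be told apart. P-values measure the spread between the deposited libraries, which the labels do not describe as separate cultures.

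Clr4 was about 5 times as abundant in clr4oe as in the other genotypes, and meu6 moved with it. Clr4 had 284 and 273 CPM in the clr4oe libraries, 55.5, 60.4 and 58.4 CPM in the K587A libraries, and 53.7, 53.9 and 60.9 CPM in the TetR-Mit1 libraries. Both clr4oe libraries lay far above all others, and K587A and TetR-Mit1 overlapped. The change in clr4oe over TetR-Mit1 was 4.96-fold, with a 95% interval of 4.59 to 5.35 (log2 2.31 ± 0.05 SE, edgeR quasi-likelihood test, adjusted p = 1.59e-21). Only 5 of the 4887 tested genes had a higher log2 fold change in that comparison, and 1 of these was meu6. Meu6 had 184 and 171 CPM in the clr4oe libraries, 36.8, 40.8 and 37.7 CPM in the K587A libraries, and 31.4, 32.4 and 39.1 CPM in the TetR-Mit1 libraries. Relative to TetR-Mit1 it was 5.17-fold higher in clr4oe (interval 4.68 to 5.72, edgeR adjusted p = 2.07e-19), and the intervals of the 2 genes overlap.

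Clr4 and meu6 occupy the same place in the genome. In the RefSeq annotation of assembly ASM294v3, meu6 lies wholly inside the annotated clr4 gene on the opposite strand, and their exons overlap while their coding parts do not. Meu6 counts per clr4 count were 0.637 ± 0.0164 in clr4oe (SD, n = 2), 0.661 ± 0.0149 in K587A (SD, n = 3) and 0.609 ± 0.0295 in TetR-Mit1 (SD, n = 3). The ratio thus differed little between genotypes, while both genes differed about 5-fold. The strand setting of the counting is not given in the sources used here, so whether reads of the 2 genes were kept apart was not tested. All 141 table genes that lie wholly inside an exon of another table gene on the opposite strand in that annotation had counts, with a median of 89.5 CPM against 84.6 CPM over all genes of the table. That all had counts tells little about strand, since 4900 to 4906 of the 4915 table genes had a count in each library.

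**Figure D1:**
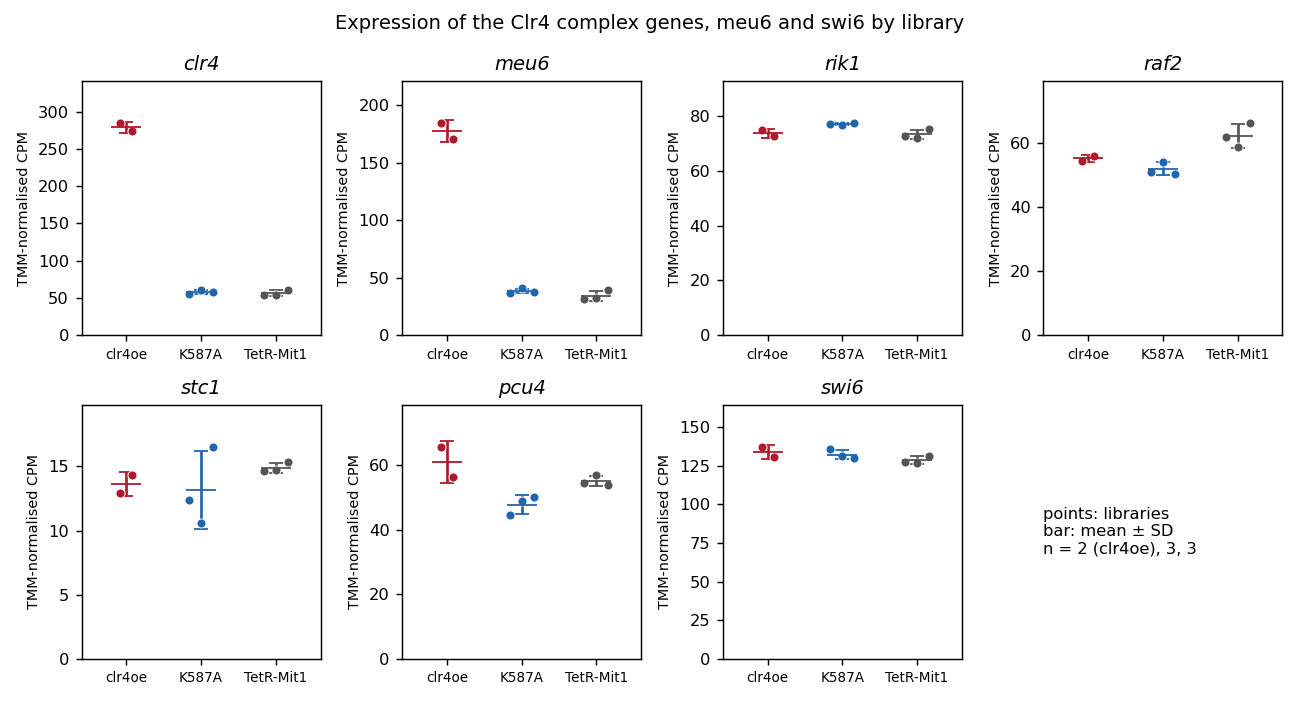
TMM-normalised CPM of the 7 genes in each library, with the genotype on the x axis of each panel, points for libraries and bars for the mean ± SD (n = 2 for clr4oe and 3 for each other genotype). The clr4oe libraries stand apart for clr4 (284 and 273 CPM) and meu6 (184 and 171 CPM), while rik1 stays between 72.1 and 77.3 CPM and swi6 between 127 and 137 CPM in all 8 libraries.

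The genes of the partners did not follow clr4 in clr4oe. Of the 5 genes rik1, pcu4, raf2, stc1 and swi6, none rose, 1 fell and 4 did not pass the threshold of an adjusted p of 0.05. Over all 4887 tested genes, 65.1% passed in this comparison, 32.1% higher and 33.0% lower, so the share among these 5 genes was below the background. Their median log2 fold change was 0.01, beside -0.0026 over all tested genes. With clr4 and meu6 included, 2 of 7 rose and 1 fell. Past the threshold and at least 2-fold changed were clr4 and meu6 alone among the 7, both higher, against 4.32% of all tested genes, 1.25% higher and 3.07% lower. No interval of the 5 genes reached a fold change above 1.23.

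Rik1 was nearly level. It had 74.8 and 72.6 CPM in the clr4oe libraries, against 72.6, 72.1 and 75.3 CPM in the TetR-Mit1 libraries, and the groups overlapped. The fold change in clr4oe over TetR-Mit1 was 1.005, with an interval of 0.927 to 1.09 (edgeR adjusted p = 0.923). Rik1 overlaps SPCC11E10.09c on the opposite strand in the annotation, and that gene fell slightly (log2 -0.13 ± 0.06 SE, edgeR adjusted p = 0.0423).

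The cullin gene pcu4 had 65.7 and 56.4 CPM in the clr4oe libraries, against 54.5, 57.1 and 54.0 CPM in the TetR-Mit1 libraries. The first clr4oe library was above all TetR-Mit1 libraries and the second was among them. The fold change was 1.11 with an interval of 0.998 to 1.23 (edgeR adjusted p = 0.0800). The value rested on a single library: the log2 fold change was 0.26 without the second clr4oe library (edgeR adjusted p = 0.0122) and 0.03 without the first (adjusted p = 0.772). Leaving out either one leaves a lone clr4oe library, which is then assumed to vary like the other groups.

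Raf2 had 54.3 and 55.9 CPM in the clr4oe libraries, against 61.6, 58.7 and 66.0 CPM in the TetR-Mit1 libraries. The groups did not overlap, as for 74.9% of all tested genes. The fold change was 0.887 (interval 0.805 to 0.976, log2 -0.17 ± 0.07 SE and edgeR adjusted p = 0.0269). This call was not stable. It was lost under DESeq2 (adjusted p = 0.0546), without the third TetR-Mit1 library (log2 -0.13, edgeR adjusted p = 0.124), and without the first (adjusted p = 0.134) or the second clr4oe library (adjusted p = 0.0656).

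Stc1 was the least abundant in counts and the least precise. It had 13.0 and 14.3 CPM in the clr4oe libraries, against 14.6, 14.7 and 15.3 CPM in the TetR-Mit1 libraries. Both clr4oe libraries were lower, but the fold change of 0.916 had an interval of 0.745 to 1.13 (edgeR adjusted p = 0.455). Stc1 overlaps mug30 on the opposite strand in the annotation. The HP1 gene swi6 had 137 and 131 CPM in the clr4oe libraries, against 127, 127 and 132 CPM in the TetR-Mit1 libraries. Its groups overlapped, with a fold change of 1.04 (interval 0.976 to 1.11, edgeR adjusted p = 0.259).

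**Figure D2:**
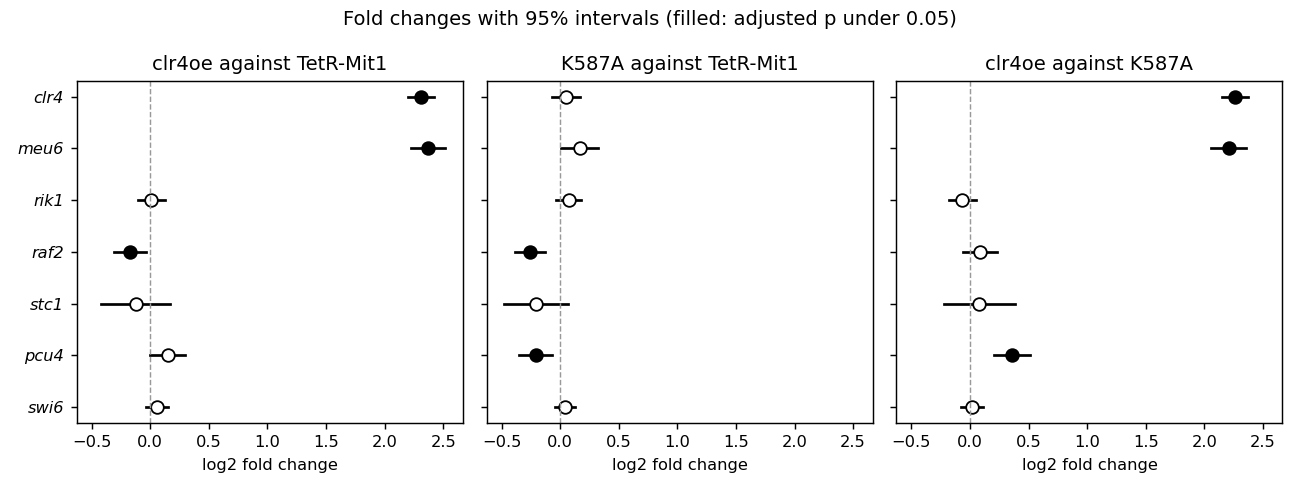
Log2 fold changes (x axis) of the 7 genes in the 3 comparisons, with horizontal lines for the 95% intervals and filled points for an adjusted p under 0.05. Clr4 and meu6 lie between 2.21 and 2.37 in both comparisons of clr4oe, and the values of the other 5 genes lie between -0.26 and 0.36 in all 3.

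The balance between clr4 and its partners can be read within a library as counts of each gene per clr4 count, where the scaling of the library cancels. Swi6 had 0.481 ± 0.0023 counts per clr4 count in clr4oe (SD, n = 2), 2.28 ± 0.147 in K587A (SD, n = 3) and 2.29 ± 0.116 in TetR-Mit1 (SD, n = 3). Rik1 had 0.264 ± 0.00176 in clr4oe, 1.33 ± 0.0618 in K587A and 1.31 ± 0.0624 in TetR-Mit1. For raf2 the ratios were 0.198 ± 0.00953 in clr4oe, 0.892 ± 0.0284 in K587A and 1.11 ± 0.0352 in TetR-Mit1. For pcu4 they were 0.219 ± 0.0175, 0.823 ± 0.0295 and 0.987 ± 0.0895 in clr4oe, K587A and TetR-Mit1. Stc1 had 0.0490 ± 0.00481 in clr4oe, 0.227 ± 0.0535 in K587A and 0.265 ± 0.0119 in TetR-Mit1. For each of the 5 genes the clr4oe libraries lay below every other library. These ratios carry the rise of clr4 itself and are no separate evidence on the partners, and their sizes are not comparable between genes of different length.

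**Figure D3:**
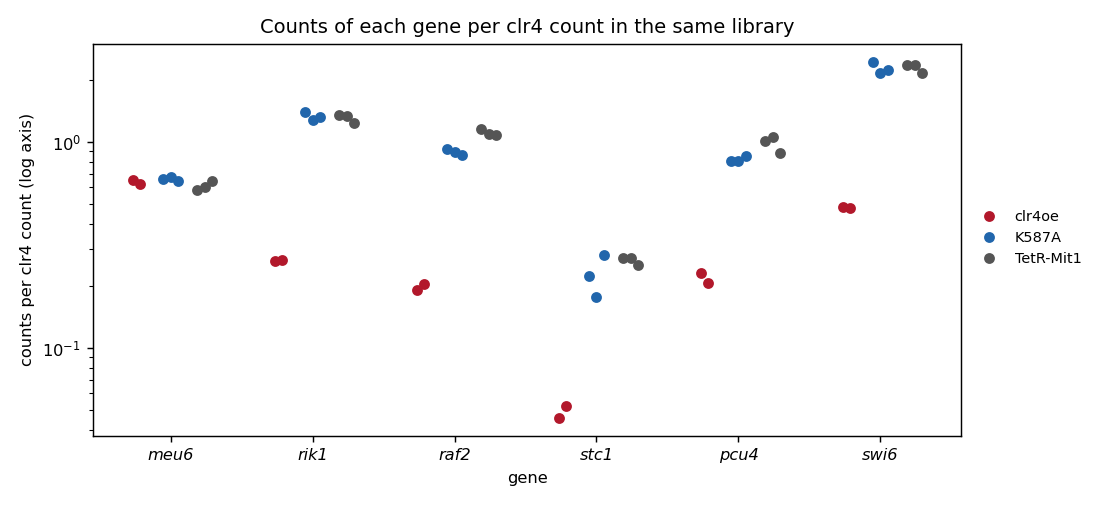
Counts of each gene per clr4 count in the same library, on a log axis, with colours for clr4oe, K587A and TetR-Mit1. Meu6 stays near 0.6 in all genotypes, and the clr4oe points of the other 5 genes lie below all points of K587A and TetR-Mit1, as for swi6 at 0.481 in clr4oe, 2.28 in K587A and 2.29 in TetR-Mit1.

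In K587A, clr4 was near its TetR-Mit1 level, and raf2 and pcu4 were slightly lower. Among the 7 genes, none rose, 2 fell and 5 did not pass, against 52.3% of all tested genes passing, 27.3% higher and 25.0% lower. None of the 7 was past the threshold with a change of at least 2-fold, against 1.80% of all tested genes, 0.389% higher and 1.41% lower. Clr4 had a fold change of 1.03 in K587A over TetR-Mit1, with an interval of 0.953 to 1.12 (edgeR adjusted p = 0.506). Raf2 had 50.9, 54.1 and 50.3 CPM in the K587A libraries, against 61.6, 58.7 and 66.0 CPM in the TetR-Mit1 libraries. All K587A libraries were below all TetR-Mit1 libraries. Its log2 fold change was -0.26 ± 0.06 SE (0.835-fold, interval 0.765 to 0.912, edgeR adjusted p = 0.000958). The fall of raf2 in K587A kept its adjusted p under the threshold in every refit, with log2 values from -0.30 to -0.21, and is smaller than the 2-fold requirement.

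Pcu4 had 44.5, 48.9 and 50.0 CPM in the K587A libraries, against 54.5, 57.1 and 54.0 CPM in the TetR-Mit1 libraries, and the groups did not overlap. Its log2 fold change was -0.21 ± 0.07 SE (edgeR adjusted p = 0.0122). This call was lost without the second TetR-Mit1 library (adjusted p = 0.0561) or the first K587A library (adjusted p = 0.0785). The pcu4 transcript therefore lay on opposite sides of TetR-Mit1 in the other genotypes, as values only, since the clr4oe side did not pass the threshold. Both comparisons share the TetR-Mit1 libraries.

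In K587A over TetR-Mit1, meu6 stood at 0.16 ± 0.08 (log2, SE, edgeR adjusted p = 0.0734). It passed the threshold without the third TetR-Mit1 library (log2 0.27, adjusted p = 0.00506) or the first K587A library (log2 0.20, adjusted p = 0.0464). Stc1 had 12.4, 10.6 and 16.5 CPM in the K587A libraries, the third above every TetR-Mit1 library and the others below. Its log2 fold change was -0.21 ± 0.13 SE (edgeR adjusted p = 0.196), and without the third K587A library it was -0.37 (adjusted p = 0.0230). That library was also the shallowest, with 10367168 counts in all and 162 for stc1. Rik1 (1.05-fold, interval 0.978 to 1.13, edgeR adjusted p = 0.242) and swi6 (1.03-fold, interval 0.969 to 1.09, adjusted p = 0.428) did not pass. For rik1 the K587A libraries, at 77.2, 76.7 and 77.3 CPM, were nevertheless all above those of TetR-Mit1, a separation shown by 58.7% of all tested genes in this comparison.

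Set directly against K587A, clr4oe had higher clr4, meu6 and pcu4, and the other 4 genes did not pass. Of all tested genes, 71.7% passed, 35.4% higher and 36.4% lower. At least 2-fold changed were again clr4 and meu6 alone, against 7.80% of all tested genes, 3.68% higher and 4.11% lower. The fold change was 4.80 for clr4 (interval 4.44 to 5.18, edgeR adjusted p = 1.32e-21) and 4.61 for meu6 (interval 4.17 to 5.10, adjusted p = 3.35e-19). Pcu4 had 65.7 and 56.4 CPM in the clr4oe libraries, against 44.5, 48.9 and 50.0 CPM in the K587A libraries. The groups did not overlap, as for 79.2% of all tested genes, with a 1.28-fold difference (interval 1.15 to 1.42, log2 0.36 ± 0.07 SE, edgeR adjusted p = 0.000152). The adjusted p of pcu4 stayed under the threshold in every refit, and the difference is smaller than the 2-fold requirement. Raf2 was at 1.06-fold (interval 0.962 to 1.17, edgeR adjusted p = 0.269) and stc1 at 1.06-fold (interval 0.855 to 1.31, adjusted p = 0.640). Rik1 was at 0.956-fold (interval 0.882 to 1.04, adjusted p = 0.305) and swi6 at 1.01-fold (interval 0.948 to 1.08, adjusted p = 0.726).

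The 7 genes thus differed widely in how much they varied over the 8 libraries. The highest library over the lowest was 5.29 for clr4 and 5.88 for meu6. It was 1.55 for stc1, 1.48 for pcu4 and 1.31 for raf2. For swi6 and rik1 it was 1.08 and 1.07. The coefficient of variation of stc1 within K587A was 22.9%, the widest of the 7 genes in any genotype, and that of rik1 in the same libraries was 0.455%.

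The chromosome II neighbourhood of clr4 was then examined over the 5 annotated protein-coding genes on each side of the clr4 and meu6 pair. In clr4oe over TetR-Mit1, 7 of these 10 genes rose, 1 fell and 2 did not pass, against 32.1% of all tested genes higher and 33.0% lower. The median log2 fold change of the 10 genes was 0.32. The genes directly next to the pair differed from each other. Rxt2, which encodes a subunit of a histone deacetylase complex, stood at -0.01 ± 0.08 (log2, SE, edgeR adjusted p = 0.907). SPBC428.10 on the other side rose by 0.37 ± 0.05 (log2, SE, adjusted p = 6.28e-07). The larger changes lay at the second gene on either side. Met17, which encodes a homocysteine synthase, averaged 387 ± 2.71 CPM in clr4oe (SD, n = 2) and 95.5 ± 0.639 CPM in TetR-Mit1 (SD, n = 3), a 4.05-fold rise (edgeR adjusted p = 1.93e-22). Arg12, the argininosuccinate synthase gene, averaged 1426 ± 10.1 CPM in clr4oe (SD, n = 2) and 603 ± 11.2 CPM in TetR-Mit1 (SD, n = 3), a 2.37-fold rise (adjusted p = 1.06e-19). Mob1, whose product acts with a kinase at the end of mitosis, rose 1.63-fold, and the acid phosphatase gene pho4 fell (log2 -0.44 ± 0.05 SE, edgeR adjusted p = 2.60e-08).

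In K587A over TetR-Mit1, where clr4 did not pass, 3 of the 10 genes rose, 3 fell and 4 did not pass, near the 27.3% higher and 25.0% lower of all tested genes. Met17 rose there too (log2 0.94 ± 0.04 SE, edgeR adjusted p = 5.00e-16), whereas arg12 fell (log2 -0.74 ± 0.03 SE, adjusted p = 1.60e-15) and so did SPBC428.10 (log2 -0.69 ± 0.05 SE, adjusted p = 1.41e-11). Both sets of fold changes use the same TetR-Mit1 libraries. In clr4oe against K587A, 7 of the 10 genes were higher and 1 was lower (35.4% and 36.4% of all tested genes), and arg12 differed most, by 3.94-fold (edgeR adjusted p = 6.15e-24).

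**Figure D4:**
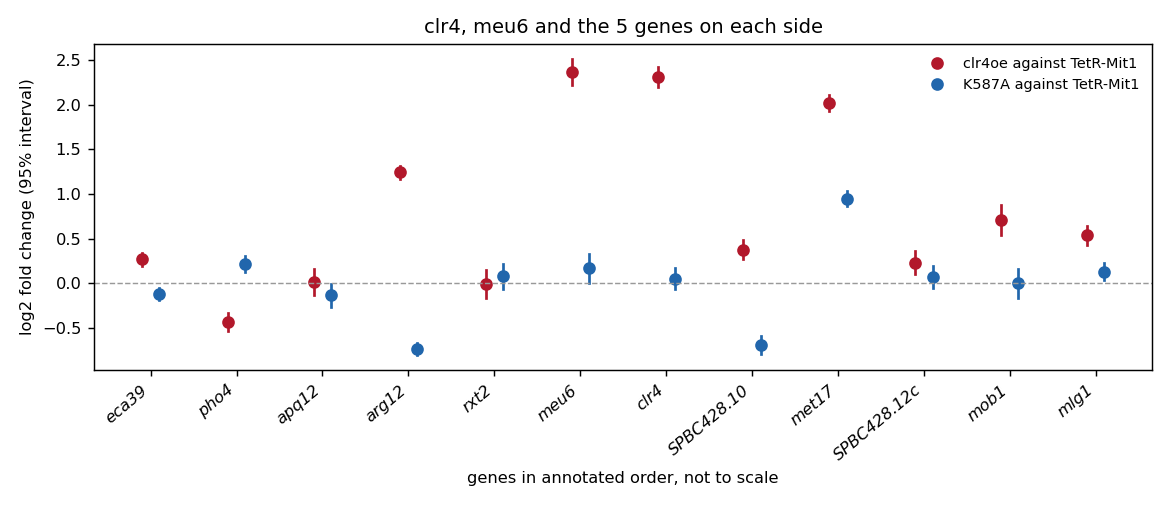
Log2 fold changes with 95% intervals (y axis) of clr4, meu6 and the 5 annotated genes on each side, in annotated order and not to scale (x axis), in clr4oe and in K587A, each against TetR-Mit1. In clr4oe, rxt2 beside the pair sits at -0.01 while met17 reaches 2.02 and arg12 1.24, and in K587A clr4 sits at 0.05 and arg12 at -0.74.

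Around the other 5 genes, the 2 annotated genes on each side were taken, 20 in all. In clr4oe over TetR-Mit1, 5 rose, 7 fell and 8 did not pass, so that the called share was close to the 65.1% of all tested genes. The largest changes were at nde1, an NADH dehydrogenase gene next to pcu4 (log2 -1.18 ± 0.04 SE, edgeR adjusted p = 7.80e-18), and at SPBP8B7.26, a neighbour of stc1 (log2 0.81 ± 0.05 SE, adjusted p = 1.54e-12). Pcu4 did not pass in that comparison while its neighbour nde1 fell to 415 ± 18.2 CPM in clr4oe (SD, n = 2), against 944 ± 15.2 CPM in TetR-Mit1 (SD, n = 3). In K587A, 6 rose, 6 fell and 8 did not pass, near the 52.3% called over all tested genes, with nde1 again lower (log2 -0.67 ± 0.04 SE, adjusted p = 6.20e-14).

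The genes whose profile over the 8 libraries was most like that of clr4 were ranked by Euclidean distance between mean-centred log2 CPM values, among 4817 genes averaging at least 5 CPM. Meu6 was the closest, at a distance of 0.185. The next 3 were hem13, the coproporphyrinogen oxidase gene of heme synthesis (0.324), sre1, which encodes the sterol- and oxygen-responsive transcription factor SREBP (0.583), and sur2, a sphingolipid hydroxylase gene (0.647). Hem13 had 1705 and 1730 CPM in the clr4oe libraries, 328, 343 and 332 CPM in the K587A libraries, and 287, 286 and 294 CPM in the TetR-Mit1 libraries. As a description of genes chosen for this profile, the log2 fold changes in clr4oe over TetR-Mit1 were 2.57 for hem13, 1.81 for sre1 and 1.84 for sur2. The other members were not among the closest of the 4817 genes, from rank 1151 for pcu4 and 2061 for swi6 to 2453 for rik1, 2640 for raf2 and 2716 for stc1.

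Other genes of the pathway were read from lists of known function. Among 14 measured genes of cullin-RING ligases and of neddylation, the modification that activates cullins, none rose, 5 fell and 9 did not pass in clr4oe over TetR-Mit1. Over all tested genes 65.1% passed, and the 32.1% that were higher stand beside none here. The share that fell was close to the 33.0% of all tested genes, and the count was 3 without the first TetR-Mit1 library or without the second clr4oe library. Their median log2 fold change was -0.13, beside -0.0026 over all tested genes. Cdt2, a substrate receptor of the other Pcu4 ligase, averaged 46.5 ± 0.653 CPM in clr4oe (SD, n = 2) and 62.8 ± 5.75 CPM in TetR-Mit1 (SD, n = 3), and fell by 0.43 on the log2 scale (± 0.07 SE, edgeR adjusted p = 8.96e-06). Ddb1, the adaptor of that ligase and the relative of rik1, had a log2 fold change of -0.21 ± 0.06 SE (adjusted p = 0.00429), and the cullin gene pcu3, listed as cul3 by RefSeq, one of -0.25 ± 0.06 SE (adjusted p = 0.00084). In K587A, 4 of the 14 rose and none fell, against 27.3% and 25.0% of all tested genes. The count that fell was 1 without the third TetR-Mit1 library, or without the first or the second K587A library. It was also 1 under median-of-ratios scaling, a stricter filter, the compared groups alone and the replicate block. The median was -0.03, beside 0.0058 over all tested genes, and turned positive without the first or the second TetR-Mit1 library. The genes that rose were ubc4, a ubiquitin-conjugating enzyme gene (log2 0.39 ± 0.04 SE, adjusted p = 3.77e-09), ddb1 (log2 0.29 ± 0.05 SE), cdt2 (log2 0.29 ± 0.06 SE) and uba3, an activating enzyme gene of neddylation (log2 0.17 ± 0.06 SE, adjusted p = 0.0189). The call of uba3 was lost without the third library of either group. In clr4oe against K587A, 1 of the 14 was higher and 7 were lower, against 35.4% and 36.4% of all tested genes. The count lower was 4 without the second clr4oe library, and the gene higher, ubc12, lost its call when any single K587A library or the first clr4oe library was left out, and also under upper-quartile scaling and DESeq2. The lower genes were led by cdt2 (log2 -0.73 ± 0.07 SE, adjusted p = 1.45e-09) and ddb1 (log2 -0.50 ± 0.06 SE, adjusted p = 5.21e-08).

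Among 23 heterochromatin genes acting with or against H3K9 methylation, 3 rose, 8 fell and 12 did not pass in clr4oe over TetR-Mit1, against 32.1% and 33.0% of all tested genes. The 8 became 5 without the first clr4oe library. The median log2 fold change was 0.02, and it was below 0 under upper-quartile scaling (-0.03), without the second TetR-Mit1 library (-0.0075) and without the first clr4oe library (-0.04). The Argonaute-binding gene arb1 rose by 0.56 ± 0.07 (log2, SE, edgeR adjusted p = 2.07e-07). Lid2 fell by 0.44 on the log2 scale (± 0.06 SE, adjusted p = 9.05e-07). Chp2, the second HP1 gene beside swi6, averaged 14.0 ± 0.724 CPM in clr4oe (SD, n = 2) and 18.04 ± 1.25 CPM in TetR-Mit1 (SD, n = 3), and its difference was -0.36 on the log2 scale (± 0.12 SE, adjusted p = 0.00807). That call was lost without the first clr4oe library (adjusted p = 0.0704). In K587A, 6 rose, 2 fell and 15 did not pass (median 0.05), fewer than the 52.3% called over all tested genes, and mit1 itself was 1.38-fold higher (edgeR adjusted p = 2.37e-11). Every genotype carries the TetR-Mit1 fusion, so counts of mit1 may include transcripts of the fusion, which cannot be told apart from any native mit1. In clr4oe against K587A, 5 were higher and 9 lower (35.4% and 36.4% of all tested genes), and the 5 became 3 without the first clr4oe library, with mit1 at a log2 fold change of -0.61 ± 0.04 SE and chp1, the chromodomain gene of the RNA interference complex, at -0.45 ± 0.08 SE.

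Clr4 is a methyltransferase with a SET domain, and 10 other genes named for that domain were measured. In clr4oe over TetR-Mit1, 1 rose, 3 fell and 6 did not pass, against 32.1% and 33.0% of all tested genes, with a median log2 fold change of -0.02. The gene that rose, set3 (log2 0.17), lost its call under upper-quartile scaling and without the second TetR-Mit1 library or either clr4oe library. Set5 averaged 12.1 ± 0.768 CPM in clr4oe (SD, n = 2) and 23.6 ± 0.931 CPM in TetR-Mit1 (SD, n = 3), or -0.97 ± 0.11 (SE) on the log2 scale (edgeR adjusted p = 3.20e-08). Set13 had a log2 fold change of -0.85 ± 0.10 SE (adjusted p = 4.26e-08) and set10 one of -0.31 ± 0.06 SE. In K587A, 3 rose, 2 fell and 5 did not pass (median 0.12), near the 27.3% and 25.0% of all tested genes, among them set3 at -0.29 ± 0.06 SE and set1 at 0.25 ± 0.06 SE.

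Genes that follow the state of the culture were read in the same way. Of 8 stress genes, 5 rose and none fell in clr4oe over TetR-Mit1 (median 0.24). Over all tested genes 65.1% were called, 32.1% higher and 33.0% lower, whereas the calls among the stress genes were all higher. They were led by the small heat shock gene hsp16 (log2 0.92 ± 0.04 SE, edgeR adjusted p = 1.84e-15). In K587A, 3 rose and 5 fell (median -0.18), against 52.3% called over all tested genes. The largest falls were in the glutathione transferase gene gst2 (log2 -2.59 ± 0.04 SE) and the catalase gene ctt1 (log2 -1.14 ± 0.04 SE). Hsp16 rose in K587A as well (log2 0.73 ± 0.04 SE, edgeR adjusted p = 5.30e-14), and so did gpd1 (log2 0.30 ± 0.03 SE). Of 7 genes tied to mating type, 1 rose and none fell in either comparison with TetR-Mit1, below the called share of all tested genes in both. The part of culture state in the small differences of raf2 and pcu4 was not tested.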

How the data were processed

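Read counts per gene were deposited by the authors as 1 table of 8 library columns, and the whole-number values were used unscaled as the input. Column names carry the suffix of STAR gene counts, per the file headers. STAR, SAMtools and DESeq2 and the genome build ASM294v2 are named, without versions, per the submitters' processing notes. Which annotation was counted, whether by strand, and with what filtering, is not given in the sources used here. Columns were matched to samples by the library letter in the labels, and the third clr4oe sample was not analysed here.

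Symbols, gene order and overlaps came from the RefSeq annotation of ASM294v3 (4906 of 4915 identifiers matched), and no coordinates or sequences are printed because the builds differ. Counts were fitted with edgeR 4.0.16 in R 4.3.3 (filterByExpr, TMM, glmQLFit, glmQLFTest), with all 8 libraries and genotype as the only factor. The fit kept 4887 genes and removed 28. P-values were adjusted by Benjamini-Hochberg over all tested genes. Standard errors are the unshrunken log2 fold change over the square root of F, and 95% intervals use the t quantile of the fit's degrees of freedom. The fit was tested on simulated counts. Alternatives tried were 2 other scalings (upper-quartile and median-of-ratios), DESeq2 1.42.0, other filters, the compared groups alone, a replicate block, a 2-fold requirement and the removal of each library.

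The members and the lists were chosen with earlier results of these data known. The 7 members were always named. From each list, up to 4 genes with the largest change past the threshold could be named, and 1 gene of the heterochromatin list is not reported here, although the counts include it. Of the listed genes, ula1 was not matched and set11 was not used here. At these depths 3 counts correspond to 0.188 to 0.289 CPM of an unscaled library, a floor that covers counting error only.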

Additional observations from a re-analysis of the deposited data

How the results depend on the processing

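Over 259 refits of the 21 log2 fold changes of the 7 genes, 239 kept their direction and their side of the threshold, 7 lost the call, 6 gained one and 7 changed sign. Clr4 stayed between 2.26 and 2.37 in clr4oe over TetR-Mit1 under every alternative. The changes of sign all concerned values near 0. Under upper-quartile scaling, rik1 in clr4oe over TetR-Mit1 became -0.044 (adjusted p = 0.503) and swi6 in clr4oe against K587A became -0.044 (adjusted p = 0.388). Leaving out a replicate at a time gave -0.015 to 0.034 for rik1 in clr4oe over TetR-Mit1, and in clr4oe against K587A -0.059 to 0.245 for stc1 and -0.015 to 0.068 for swi6. For rik1 the sign changed without TetR-Mit1 replicate 1 (-0.00127), TetR-Mit1 replicate 2 (-0.00536) or clr4oe replicate 1, for stc1 without K587A replicate 2, and for swi6 without clr4oe replicate 1. Upper-quartile scaling moved the median of all genes by less than 0.1 on the log2 scale. Under it the split of higher and lower calls was 1322 and 1888 in clr4oe over TetR-Mit1, against 1567 and 1612, and rik1 passed as lower in clr4oe against K587A (-0.13, adjusted p = 0.0427). A 2-fold requirement left 88 genes in K587A over TetR-Mit1 with none of the 7, 211 in clr4oe over TetR-Mit1 and 381 in clr4oe against K587A, in each of these last with clr4 and meu6 only. Without a replicate at a time, the genes changed were 2269 to 2350, 2795 to 3053 and 3163 to 3404 in these comparisons, and the members changed 1 to 3, 2 to 3 and 3 to 3.

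The replicate number as a block called 2573, 3119 and 3458 genes in the same comparisons and order, against 2557, 3179 and 3505 without it. With the block, raf2 no longer passed in clr4oe over TetR-Mit1 (-0.16, edgeR adjusted p = 0.0651) and meu6 passed in K587A over TetR-Mit1 (0.18, adjusted p = 0.04995). Same-numbered K587A and TetR-Mit1 libraries had deviations correlated at 0.131, -0.0597 and 0.138 across genes. Libraries 1 and 3 of both groups were closest to their own number, and library 2 was not. For libraries 1 and 2 of clr4oe the same-numbered values were -0.0302 and 0.0667 with TetR-Mit1, and -0.152 and -0.0699 with K587A. With so few libraries, and deviations taken from each group's own mean, these values cannot decide whether the numbers pair the samples. The counts of the gene lists and 84 values of genes outside the 7 were also recomputed, a choice made after the data were seen, and for the 84 values 1000 of 1035 refits kept the call, 35 lost it and none changed sign. For members that did not pass, the printed intervals bound the differences that these libraries leave possible.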
